A study of Mus musculus with 27 samples.

Results

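The major urinary protein genes described here are Mup1, Mup3, Mup11, Mup13, Mup14, Mup18, Mup20 and Mup21, 8 of the 17655 genes in the deposited liver tables. They were chosen by their measured read counts: the family was proposed after Mup13 had been seen to differ between the knockout and control females after resolution, so that contrast is given below as a description, with no test. The members were then found by symbol, and the family sum was added because reads can be divided among near-identical genes. Whole livers of 27 mice were sequenced, 3 in each of 9 groups. All mice carried floxed Kdm5b alleles (Kdm5b fl/fl), the gene of a histone H3 lysine 4 demethylase, and all were fed WDA, a western diet combined with alcohol as the drink. At the WDA stage, mice of both sexes had WDA for 8 weeks with AAV8-control (WT) or AAV8-CMV-Cre (KO), and females also with AAV8-TBG-Cre (HepKO). At the resolution stage (Res), mice of both sexes had WDA for 16 weeks, AAV-control (WT) or AAV-CMV-Cre (KO), and then 4 weeks of resolution. The CMV promoter is active in many cell types, whereas the TBG promoter is active in hepatocytes. The labels give no ages, and no group without WDA was among these libraries. The sample titles carry a number, 11 at the WDA stage and 12 at the resolution stage, and what it stands for is not stated. Stage, title number, weeks on WDA and the order in which vector and WDA are listed cannot be told apart.

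Major urinary proteins are small lipocalins, barrel-shaped carriers that hold volatile ligands in a central pocket. In mice the hepatocytes secrete most of them into the blood, from where they pass into the urine and act in scent marking and individual recognition. Their genes lie side by side on chromosome 4, and their transcription in liver is known to depend on growth hormone, androgens, thyroid hormone and glucocorticoids, with the pulsed growth hormone release of males giving higher levels than the steadier release of females. Mup20 encodes darcin, a male pheromone that attracts females, and Mup1 belongs to the large group of central genes that are nearly alike.

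The members are shown first by sequence, because their likeness limits what each single value can mean. All 8 lie on the minus strand of chromosome 4, between 60498012 (the Mup1 end) and 62150841 (the Mup21 end) of GRCm38.p6 as RefSeq annotates them. GENCODE coding sequences of Mup1, Mup11, Mup13, Mup14 and Mup18 were 98.34 to 99.82% identical over their 10 pairs (median 98.81%), and Mup11 and Mup18 differed at 1 of 543 bases. These 5 were 82.43 to 91.34% identical to Mup3, Mup20 and Mup21, and Mup3 and Mup21 were 94.75% identical to each other. The same stretch of 60 coding bases from exon 3 is printed for each distinct sequence, with capitals where a base differs from Mup11; the stretches of Mup1 and Mup14 were the same as that of Mup11.
Mup11, chr4:60660902-60660961, minus strand: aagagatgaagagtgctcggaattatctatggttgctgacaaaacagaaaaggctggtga
Mup13, chr4:61226765-61226824, minus strand: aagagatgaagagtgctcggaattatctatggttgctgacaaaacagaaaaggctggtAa
Mup18, chr4:61672626-61672685, minus strand: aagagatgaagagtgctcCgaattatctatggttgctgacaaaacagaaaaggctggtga
Mup20, chr4:62052650-62052709, minus strand: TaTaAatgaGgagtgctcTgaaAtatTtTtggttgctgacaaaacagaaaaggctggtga
Mup3, chr4:62085973-62086032, minus strand: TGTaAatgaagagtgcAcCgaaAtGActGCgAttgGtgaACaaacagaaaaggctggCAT
Mup21, chr4:62149368-62149427, minus strand: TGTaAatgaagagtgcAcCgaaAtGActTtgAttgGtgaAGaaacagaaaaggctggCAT

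Mup13 and Mup18 thus differed from Mup11 at 1 base each in this stretch, Mup20 at 8, Mup21 at 17 and Mup3 at 18. Of all stretches of 100 bases in a GENCODE transcript of the gene, 97.1% were found in no other gene's transcript for Mup3, 95.5% for Mup21 and 61.2% for Mup20. For the other members this share was 17.7% (Mup13), 16.5% (Mup11), 12.9% (Mup18), 12.8% (Mup1) and 8.6% (Mup14). The deposited read counts of the members were fractional in at least 24 libraries for every member, a form that counts can take when the counting step divides reads among genes. How the reads were assigned is not given in the sources used here. For stretches of 50 bases the share was 84.4% for Mup3, 80.7% for Mup21 and 49.5% for Mup20. Mup3, Mup21 and, in part, Mup20 thus have more sequence of their own. Still, their counts were fractional in 26, 27 and 25 libraries, so reads of these genes may have been divided as well. The single values of Mup1, Mup11, Mup13, Mup14 and Mup18 are the most uncertain and are best read with their sum.

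RefSeq promoters were at hand for Mup3, Mup11, Mup14, Mup18 and Mup21. On either strand, TATATAA was present in 5 of these 5 promoters and in 3.46% of the 27025 mouse promoters, and TTCNNNGAA, the letters that STAT5 is known to bind, was present in 0 of 5 and in 8.47%. TATATAA was picked after the promoters had been read, and a match is a description of letters only. The 100 bases that end with it are shown for 1 gene of each branch, with TATATAA in capitals, since both branches share this ending. The Mup3 stretch lies just outside the annotated gene, and the Mup14 stretch lies inside the annotated span of its gene.
Mup3 promoter, chr4:62087322-62087421, minus strand: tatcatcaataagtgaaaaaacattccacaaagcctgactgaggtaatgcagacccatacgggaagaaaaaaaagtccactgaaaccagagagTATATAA
Mup14 promoter, chr4:61303980-61304079, minus strand: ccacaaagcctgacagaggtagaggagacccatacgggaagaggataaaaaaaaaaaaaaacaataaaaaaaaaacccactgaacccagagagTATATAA

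The libraries held 14634602 to 19388251 gene counts each (median 17944536). Levels are given as CPM, read counts relative to the size of the library after scaling by the trimmed mean of M values (TMM) over all 27 libraries, and as FPKM, which also corrects for gene length, where genes are compared with each other. The summed CPM of 4 Y-linked genes was 0.35 to 2.1 in females and 87.6 to 157 in males, so every library matched the labelled sex. Group means of Kdm5b were 17.1 to 26 CPM in WT, 12 to 21.5 CPM in KO and 13.3 CPM in HepKO livers, and the KO and WT mice overlapped in WDA females. Hepatocyte markers were abundant throughout, at a summed 82402 to 185234 CPM.

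In 5 mice the summed cholangiocyte markers (Krt19, Krt7, Epcam, Sox9, Spp1 and Cftr, genes of bile duct cells) exceeded 5 times the median of all libraries. These were WT WDA female mouse 7, WT Res female mouse 13, KO WDA male mouse 17, WT Res male mouse 9 and KO Res male mouse 5, a choice made after the data had been seen. Their sums were 155 to 529 CPM against 16.4 to 105 CPM in the other 22 mice, with all 6 markers above 0 in all 5. Summed stellate cell markers (7 of 7 detected) were 361 to 750 CPM against 175 to 380 CPM, although Lrat in that list lay lower (8.18 to 13.4 against 10.6 to 20.6 CPM). Summed hepatocyte markers (10 of 10 detected) were 82402 to 108018 CPM against 91356 to 185234 CPM. Endothelial markers summed to 184 to 209 CPM against 195 to 353 CPM, and macrophage markers to 162 to 433 CPM against 232 to 745 CPM. In these whole livers, fewer cells of a type and less RNA per cell cannot be told apart, and the part that these cells have in the Mup values was not tested. Results that rest on these mice are given with and without them.

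The members as a family were far more abundant in male than in female livers. Their summed CPM was 289 to 2367 in the 15 females (median 1800) and 2119 to 47985 in the 12 males (median 32864). The ranges met only through the lowest male, KO WDA mouse 17, at 2119 CPM. Without the 5 mice high in cholangiocyte markers, females had 1175 to 2367 CPM and males 29700 to 47985 CPM, with a wide gap between the sexes.

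**Figure D1:**
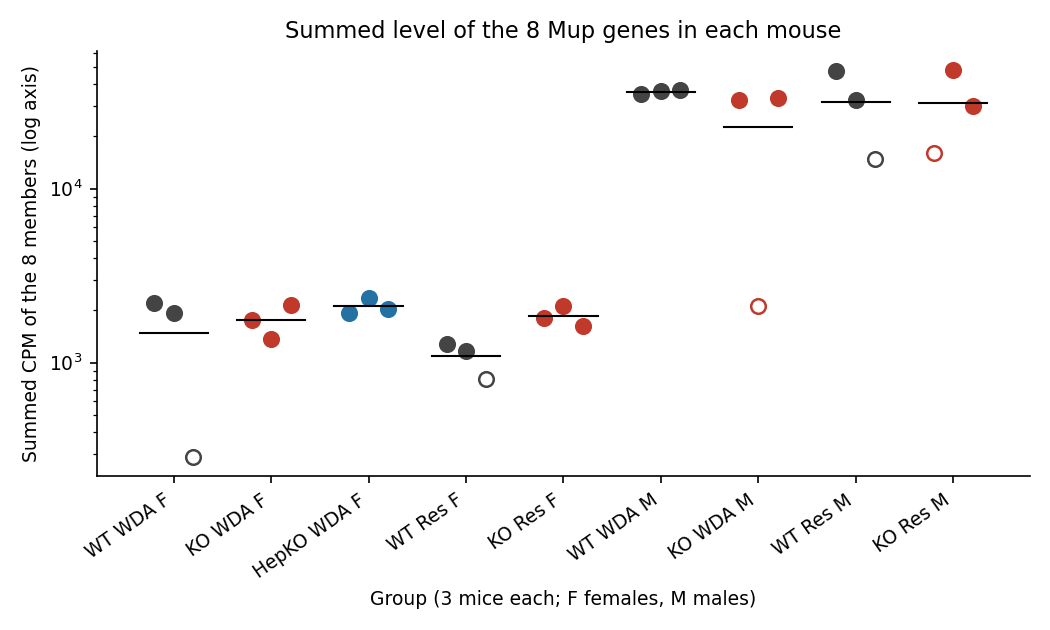
Summed CPM of the 8 members in each mouse (log axis), by group, with 3 mice a group; lines are group means and open circles are the 5 mice high in cholangiocyte markers. All males but KO WDA mouse 17 (2119 CPM) sit above all females, and the open circle is the lowest mouse of its group in each of the 5 groups that have one.

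Ordered by mean (± SD, n = 3), the family sum was 36034 ± 1070 CPM in WT WDA males, 31468 ± 16275 CPM in WT Res males, 31244 ± 16024 CPM in KO Res males and 22616 ± 17755 CPM in KO WDA males. HepKO WDA females followed at 2105 ± 232 CPM, then KO Res females at 1851 ± 255 CPM, KO WDA females at 1752 ± 379 CPM, WT WDA females at 1472 ± 1035 CPM and WT Res females at 1089 ± 250 CPM. Neighbouring groups in this order overlapped throughout, including the lowest male and the highest female group. SDs that were wide beside their mean belonged to groups that contain 1 of the 5 mice named above.

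The makeup of the family also differed between the sexes. On the FPKM scale, Mup3, one of the divergent members, made up a median of 71.4% of the family in females (27.7 to 85.8%) and 14.1% in males (9.75 to 17%). Mup14 made up 37.8% in males (20.1 to 41.8%) and 2.67% in females (0.476 to 15.3%). Mup11 contributed 24.2% in males and 6.56% in females, and darcin, Mup20, 14.6% and 3.07%. Thus, among the members only, male values were led by the near-identical Mup14 and Mup11 and female values by Mup3. The division among the near-identical genes depends on how reads were assigned. Some Mup genes outside the members, such as Mup19 and Mup22, had a higher median FPKM than any member in both sexes. Mup13 was the least abundant member per length in both sexes, at a median FPKM of 3.49 in females and 74.2 in males.

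**Figure D2:**
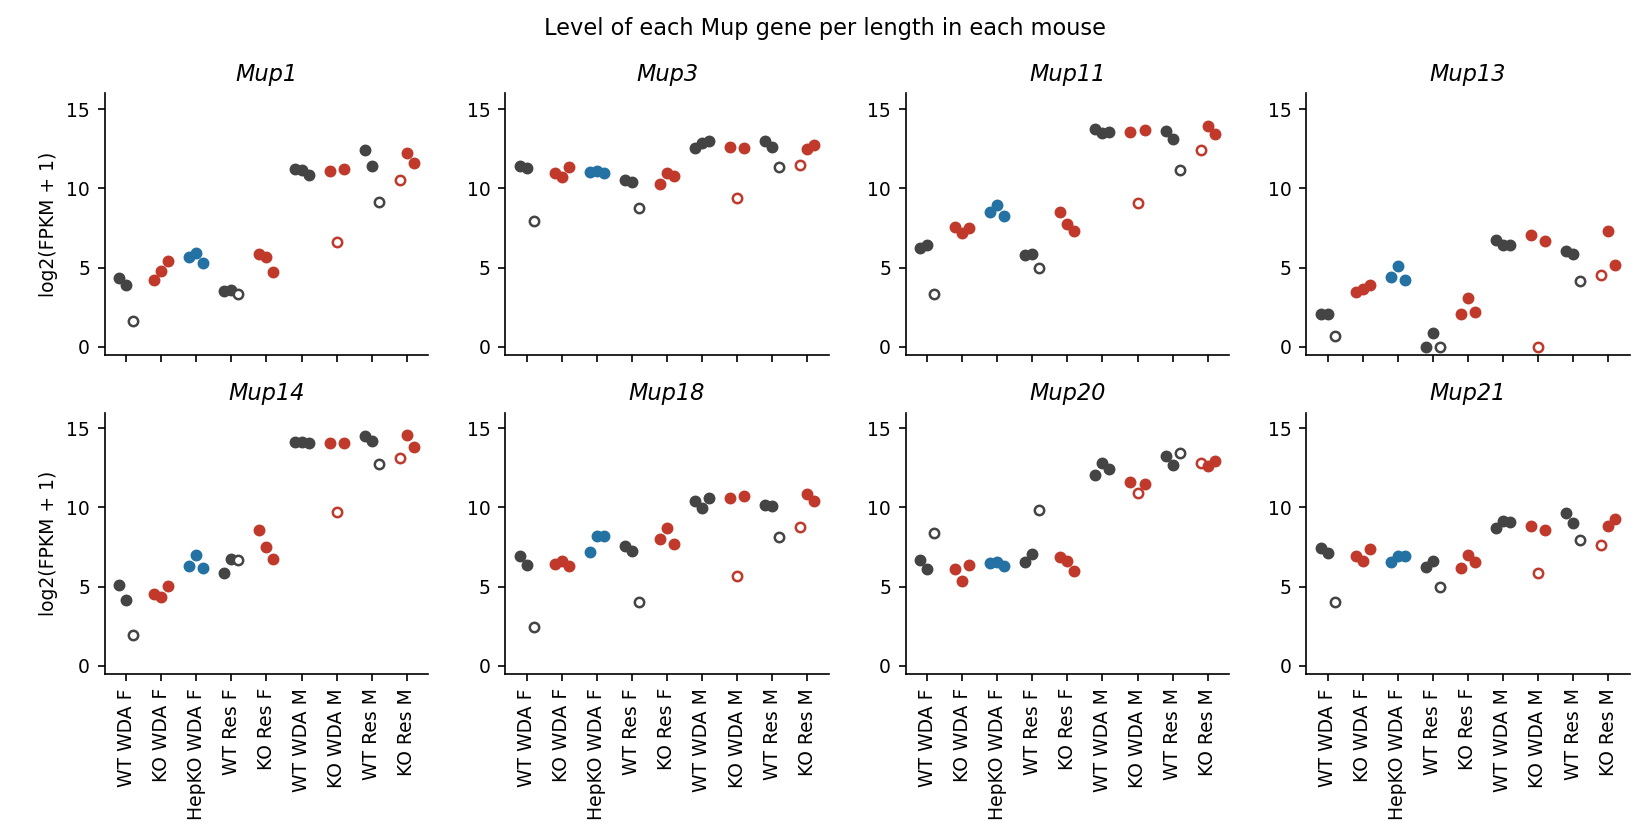
Log2 (FPKM + 1) of each of the 8 members, 1 panel a gene, in each of the 27 mice by group, with open circles for the 5 mice high in cholangiocyte markers. Mup14, Mup11 and Mup1 step up sharply from females to males, Mup3 is high in both sexes, and for Mup20 the open circles of the females lie above the other females.

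The first comparison asked how male and female livers differed within each vector and stage. In WT WDA mice, Mup14 was at 13587, 13808 and 13971 CPM in the males and at 23.2, 11.5 and 1.44 CPM in the females (mice 5, 6 and 7). The groups were widely separated. The log2 fold change was 10.17 ± 1.16 (SE), with an adjusted p of 0.0225 in edgeR's quasi-likelihood test. Mup11 (log2 fold change 7.97), Mup1 (7.73), Mup20 (5.51) and Mup13 (5.48) also rose in males, so that 5 of 8 members were called higher, where 0.535% of all 12333 tested genes were called higher and 0.851% in either direction. For Mup18, Mup21 and Mup3 the log2 fold changes were 4.39, 2.4 and 2.17 with adjusted p of 0.171, 0.283 and 0.336, although their male and female values did not overlap either. Such separation was found for 8 of 8 members and, in the higher direction, for 13.2% of all genes.

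In KO WDA mice 1 member, Mup20, was called higher in males, where 0.12% of genes were (0.296% in either direction). Mup20 was at 2288, 955 and 2106 CPM in males 16, 17 and 18 and at 45.5, 25.2 and 51.8 CPM in the females. The lowest male was still many times above the highest female, with a log2 fold change of 5.45 ± 0.46 and an adjusted p of 0.00524. Mup14 stood at 13058, 443 and 13195 CPM in the same males and at 15.4, 12.7 and 21.7 CPM in the females. Its groups did not overlap, and its log2 fold change of 9.06 had an adjusted p of 0.0504. With Mup1, Mup11 and Mup20 this made 4 of 8 members without overlap, against 7.74% of genes in this direction. Mup3, Mup13, Mup18 and Mup21 overlapped between the sexes through mouse 17, in which Mup13 was at 0 counts, a value that allows up to 0.127 CPM (3 counts, counting error only).

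In WT Res mice, Mup14 (log2 fold change 7.82, adjusted p 0.00244), Mup11 (7.64, 0.0122), Mup1 (8.45, 0.0124) and Mup13 (7.59, 0.0223) rose in males. These were 4 of 8 members, against 0.348% of genes called higher and 0.545% in either direction. The WT Res females are 1 side of the contrast that chose the family, so this count is a description. Mup13 had 0, 8.81 and 0 reads in the females, so it passed the filter on low counts only through the males and its fitted fold over a group near 0 is uncertain (6.95 to 12.17 when 1 mouse was left out). In WT WDA mice, too, Mup13 passed only through the males, with 36.5, 37.8 and 6.12 reads in the females. Without it, 4 of 7 members were called in WT WDA and 3 of 7 in WT Res mice. Mup20 was at 7119, 4460 and 6657 CPM in the males and at 58.8, 76.9 and 480 CPM in the females, with a log2 fold change of 4.87 and an adjusted p of 0.0684. The highest female value was that of mouse 13. Male values lay above female values without overlap for 8 of 8 members and for 8.82% of genes.

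In KO Res mice, 8 of 8 members were called higher in males, where 3.4% of genes were (6.34% in either direction). The KO Res females are the other side of the contrast that chose the family, so this count is a description too. Mup20 was at 4939, 4136 and 4910 CPM in males 11, 5 and 6 and at 80.6, 64 and 41.4 CPM in females 2, 3 and 4. Its log2 fold change was 6.26 ± 0.3, with an adjusted p of 2.31e-05. The log2 fold changes of the other members ran from 1.67 (Mup3, adjusted p 0.0267) to 6.23 (Mup1, adjusted p 0.00128). Without overlap were 7 of 8 members, all but Mup18, and 13.5% of genes.

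Without the mice high in cholangiocyte markers, 8 of 8 members were called higher in males in each of the 4 settings, with 8.35% of all genes called in WT WDA, 2.8% in KO WDA, 1.45% in WT Res and 8.84% in KO Res mice. Leaving out 1 mouse at a time gave 0 to 8 calls in WT WDA, 0 to 8 in KO WDA, 1 to 5 in WT Res and 4 to 8 in KO Res mice, with no change of direction for any member. For most of these fits no share of all genes is given, so the counts are a description. In WT WDA mice, 8 members were called without female 7 and 0 without any other mouse. In KO WDA mice, 8 were called without male 17, 2 without male 16 and 0 without female 1 or 3. In WT Res mice, 5 were called without female 13 or male 9, 3 without male 7 and 1 without female 1, female 12 or male 8. In KO Res mice, 4 were called without female 2 or 4, 5 without female 3 or male 11, 6 without male 6 and 8 without male 5.

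**Figure D3:**
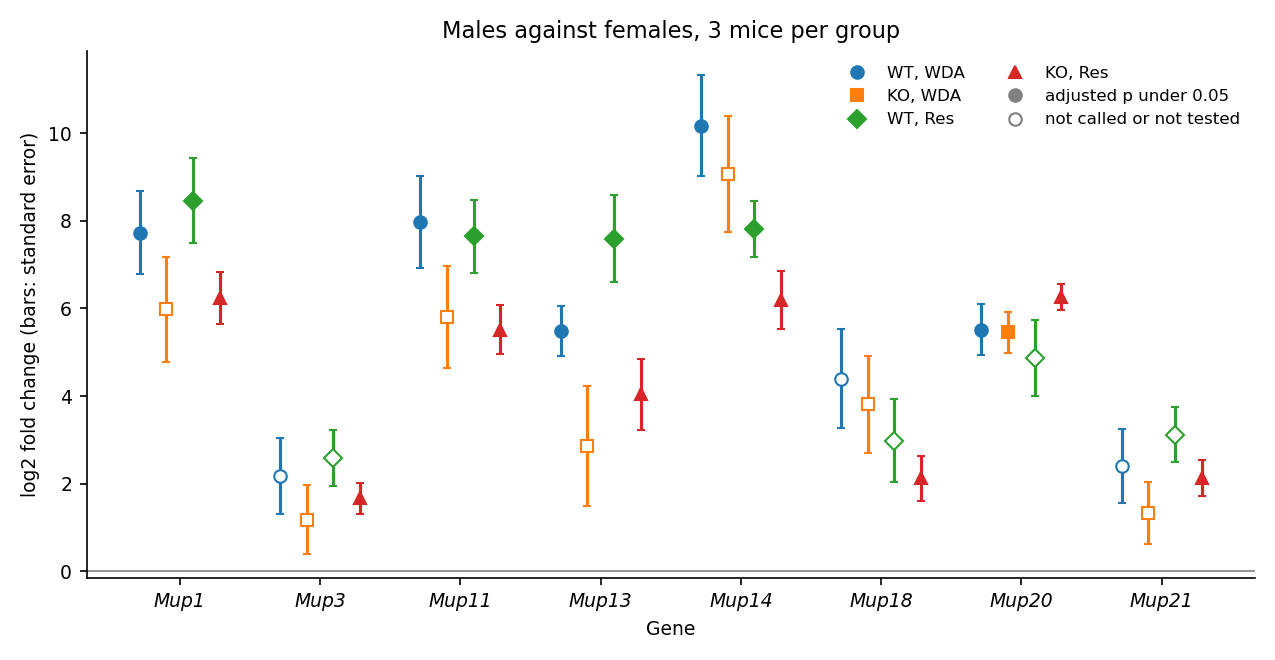
Log2 fold change of males against females for each member in the 4 settings of vector and stage, with SE bars; filled points have an adjusted p under 0.05 in edgeR's quasi-likelihood test. All points lie above 0, and Mup3 lies lowest in each setting (2.17, 1.18, 2.58 and 1.67).

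The family sum showed the same gap as a log2 difference of males against females. It was 5.07 ± 0.95 (SE) in WT WDA, 2.93 ± 1.33 in KO WDA, 4.73 ± 0.54 in WT Res and 3.95 ± 0.47 in KO Res mice. Without the 5 mice these differences were 4.13, 4.25, 4.99 and 4.36. Summed over every Mup gene in the tables, of which the 8 members are only a part, they were 4.62, 1.65, 3.56 and 2.12 with all mice. The sex gap was then compared between the stages, and no member was called to change (0 of 8 in WT, where 0.0076% of genes were called, and 0 of 8 in KO, where 0% were). At an unadjusted p under 0.05 there was 1 of 8 members and 1014 of 13152 genes in WT, and 1 of 8 members and 1030 of 13036 genes in KO. DESeq2 called 0 members in either, with 0.639% and 0.69% of genes. The member under the unadjusted threshold was Mup14 in both, with a log2 difference of -2.34 ± 1.02 in WT (adjusted p 0.641) and -2.87 ± 1.24 in KO (adjusted p 0.587). As 1 of 8 is near the share of all genes, no change of its sex gap is read from this.

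The next question was how Cre delivery went with Mup levels in females. After resolution, where the family was chosen, KO females had higher values than WT females for most near-identical members. Mup13 was at 2.22, 4.91 and 2.31 CPM in KO females 2, 3 and 4 and at 0, 0.476 and 0 CPM in WT females 1, 12 and 13. The WT values correspond to 0, 8.81 and 0 reads, and a count of 0 allows up to 0.169 CPM in mouse 1 and 0.14 CPM in mouse 13. The fitted log2 fold change was 4.22 and moved between 3.6 and 8.84 when 1 mouse was left out, since with so few reads it depends on the prior count.

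Mup11 was at 267, 151 and 108 CPM in the KO Res females and at 37.2, 34.5 and 16.2 CPM in the WT Res females. Every KO value lay above every WT value, with a log2 fold change of 2.55. Mup1 (2.29), Mup14 (1.54) and Mup18 (1.4) likewise did not overlap, which made 5 of 8 members against 13.8% of genes in this direction; nothing is read from that count, because the contrast was used to choose the family. Mup3 (log2 fold change 0.73) and Mup21 (0.65) overlapped between the groups.

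Darcin moved the other way in the same contrast. Mup20 was at 80.6, 64 and 41.4 CPM in the KO and at 58.8, 76.9 and 480 CPM in the WT Res females, a log2 fold change of -1.79 that rested on WT mouse 13. Without that mouse it was -0.16. The family sum, led by Mup3, was 1800, 2127 and 1625 CPM in KO and 1285, 1175 and 807 CPM in WT Res females, a log2 difference of 0.78 ± 0.23, or 0.58 without mouse 13. The sum of the 5 near-identical members was 771, 598 and 339 CPM against 207, 198 and 84.7 CPM, again without overlap.

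At the WDA stage, no member was called between KO and WT females (0 of 8 by edgeR, where 0% of 12397 genes were called). At an unadjusted p under 0.05 there were 2 members and 385 genes, and DESeq2 called 0 members and 0.0645% of genes. Mup13 was at 6.66, 7.32 and 8.65 CPM in the KO and at 2.17, 2.1 and 0.272 CPM in the WT females. These groups did not overlap, with a log2 fold change of 2.31 ± 0.62 and an adjusted p of 0.978. Mup11, at 130, 96.7 and 121 CPM against 52.9, 58.5 and 4.5 CPM, was the other member without overlap (1.58, adjusted p 0.978). Thus 2 of 8 members and 4.99% of genes were separated upward. Mup13 had 36.5, 37.8 and 6.12 reads in the WT females and passed the filter on low counts only through the KO females. Its part in these counts is therefore a description. Without WT mouse 7 the log2 fold changes of Mup13 and Mup11 were 1.8 and 1.06, whereas those of Mup3, Mup14, Mup18 and Mup21 passed from 0.22 to 0.46 with all mice to -0.06 to -0.31.

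HepKO females, whose Cre was driven by the hepatocyte promoter, had higher values of all near-identical members than the same WT WDA females, which both comparisons share. Mup11 was at 243, 347 and 211 CPM, Mup13 at 12.8, 22 and 11.8 CPM and Mup14 at 53, 89 and 50.9 CPM in HepKO mice 13, 14 and 15. The WT females had 4.5 to 58.5 CPM of Mup11, 0.272 to 2.17 CPM of Mup13 and 1.44 to 23.2 CPM of Mup14. Mup1, Mup11, Mup13, Mup14 and Mup18 did not overlap, 5 of 8 members against 9.62% of genes, with log2 fold changes of 1.81 to 3.37. Even so, 0 of 8 members and 0% of 12413 genes were called by edgeR, while 4 members and 1249 genes had an unadjusted p under 0.05. Mup13, for example, had an adjusted p of 0.205. With 36.5, 37.8 and 6.12 reads in the WT females, it passed the filter on low counts only through the HepKO females. Its part in these counts is therefore a description.

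The lack of edgeR calls in HepKO against WT females turned on WT mouse 7. Without it edgeR called 4 members, Mup11 (log2 fold change 2.26, adjusted p 0.00215), Mup13 (2.85, 0.00235), Mup1 (1.52, 0.0103) and Mup14 (1.9, 0.019), where 2.8% of genes were called. With all mice, DESeq2 called Mup13 alone among the members (adjusted p 4.65e-05) and 1.85% of genes. That call is a description too, because Mup13 passed the filter only through the HepKO females. Mup3 and Mup21 showed log2 fold changes of 0.25 and 0.06 with all mice and of -0.29 and -0.47 without mouse 7, and Mup20 of -0.67 and 0.01. The family sum differed by 0.97 ± 0.95 on the log2 scale with all mice and by 0.03 without mouse 7, since Mup3 makes up most of the female sum. The 5 near-identical members summed to 432, 696 and 491 CPM in HepKO and 175, 134 and 9.34 CPM in WT females 5, 6 and 7. All Mup genes together, members and others, were at 21759, 30320 and 18858 CPM against 14275, 12782 and 710 CPM.

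The direct comparison of HepKO with KO females at the WDA stage involved no mouse high in cholangiocyte markers. Mup14 was at 53, 89 and 50.9 CPM in HepKO and at 15.4, 12.7 and 21.7 CPM in KO females, with a log2 fold change of 1.95 ± 0.25 and an adjusted p of 0.0782. Mup18 was at 91, 199 and 193 CPM against 57.4, 60 and 50.9 CPM (1.52, adjusted p 0.199), and Mup11 and Mup13 had log2 fold changes of 1.2 and 1.04. All 4 were higher without overlap, as were 5.66% of genes, but 0 of 8 members and 0.0162% of genes were called by edgeR. At an unadjusted p under 0.05 there were 5 of 8 members and 709 of 12351 genes. DESeq2 called these 4 members and 0.308% of genes, with adjusted p from 1.99e-12 (Mup14) to 0.0144 (Mup13). Mup3 and Mup21, the divergent pair, had log2 fold changes of 0.02 and -0.17.

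**Figure D4:**
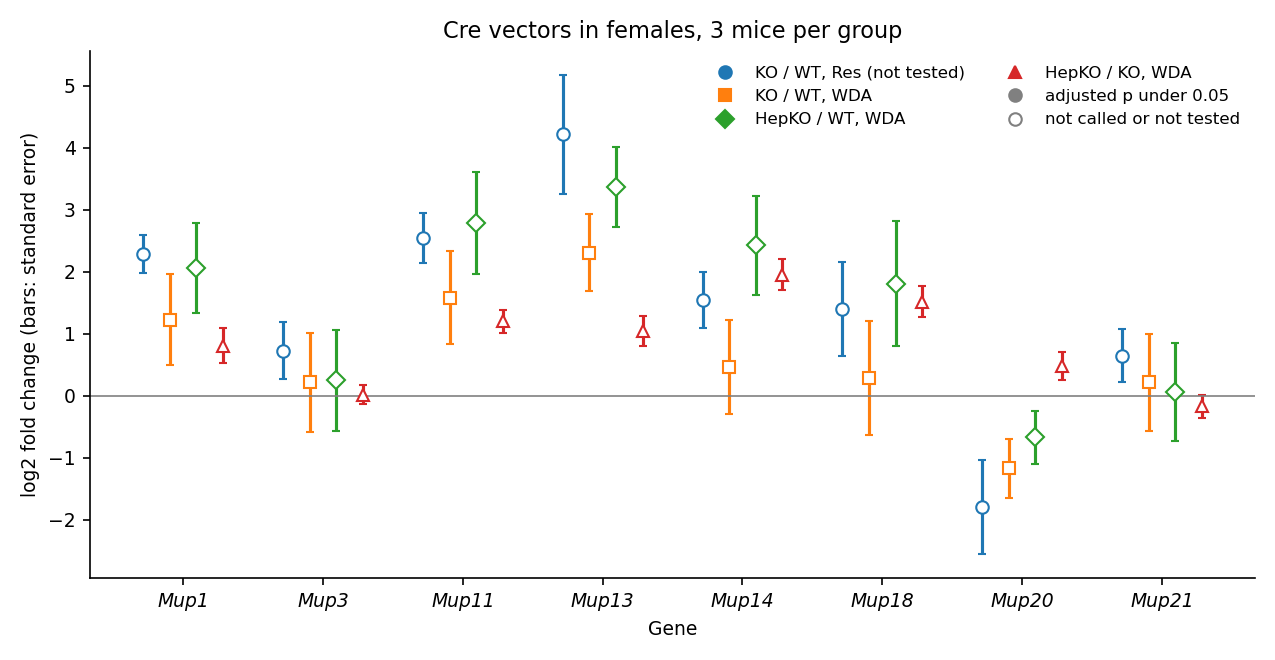
Log2 fold change of each member in females for KO against WT after resolution (a description, with no test), KO against WT at the WDA stage, HepKO against WT and HepKO against KO, with SE bars; no member has an adjusted p under 0.05 in the 3 tested comparisons. The near-identical Mup1, Mup11, Mup13, Mup14 and Mup18 lie above 0 in each, Mup3 and Mup21 lie nearer to 0, and Mup20 lies below 0 except against KO.

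In males, Cre delivery went with no call among the members. Between KO and WT males, edgeR called 0 of 8 members and 0% of genes at either stage. At an unadjusted p under 0.05 there were 0 of 8 members and 183 of 12620 genes after resolution. At the WDA stage there were 1 of 8 members and 958 of 12419 genes. DESeq2 called 0 members at either stage, with 0.0555% and 0.137% of genes. The median log2 fold change of the members was 0.01 after resolution, with 4 above and 4 below 0, and -0.6 at the WDA stage, with 8 below 0. Without KO WDA mouse 17, Mup1 (0.07), Mup13 (0.33) and Mup18 (0.29) were above 0 at the WDA stage. The family sum differed by 0.01 ± 0.67 after resolution and by -1.45 ± 1.32 at the WDA stage, or by -0.05 and -0.13 without the mice high in cholangiocyte markers. At the WDA stage mouse 17 had by far the lowest KO sum (2119 CPM, beside 32499 and 33230 CPM). Mup20 and Mup14 were lower in KO without overlap, 2 of 8 members against 8.69% of genes in this direction. Mup20 was at 2288, 955 and 2106 CPM in KO and at 3061, 5159 and 4164 CPM in WT WDA males, so every KO male lay below every WT male, with a log2 fold change of -1.2 ± 0.38 and an adjusted p of 0.588 (unadjusted p 0.0158). Without mouse 17 it was -0.91. Mup14, at 13058, 443 and 13195 CPM against 13587, 13808 and 13971 CPM, had a log2 fold change of -0.63, or -0.07 without mouse 17.

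The stages were compared next, each within 1 sex and vector, with the title number and the weeks on WDA changing together with the stage. In females these comparisons reuse the WT Res or KO Res females of the contrast that chose the family. In KO females, the only such comparison without a mouse high in cholangiocyte markers, Mup14 and Mup18 rose and Mup13 fell after resolution. The sum of the 8 members differed by 0.09 ± 0.22 on the log2 scale, and that of every Mup gene in the tables by 0.61. Mup14 was at 284, 127 and 74.9 CPM after resolution and at 15.4, 12.7 and 21.7 CPM under WDA, a log2 fold change of 3.29 ± 0.44 with an adjusted p of 0.00209. Mup18 was at 177, 282 and 137 CPM against 57.4, 60 and 50.9 CPM (1.82 ± 0.23, adjusted p 0.00175). Neither pair of groups overlapped, as held for 20.1% of genes in this direction. Mup13 was at 2.22, 4.91 and 2.31 CPM against 6.66, 7.32 and 8.65 CPM, without overlap like 20.3% of genes in the lower direction, and its log2 fold change was -1.25 ± 0.29 with an adjusted p of 0.0174.

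Thus 2 of 8 members were called higher and 1 lower in KO females, beside 20.4% of 12470 genes in either direction, 10.2% in each. The KO Res females also entered the contrast that chose the family, so these calls are a description. The call of Mup13 was lost when 1 mouse was left out (adjusted p 0.00402 to 0.0704), and with a spread estimated over all 9 groups Mup14 alone was called (adjusted p 0.0212). Mup3, at 908, 1397 and 1195 CPM against 1420, 1107 and 1767 CPM, had a log2 fold change of -0.29 with an adjusted p of 0.312. The 5 near-identical members together were at 771, 598 and 339 CPM after resolution and at 221, 193 and 229 CPM under WDA. Because these genes share most of their sequence, the values of single members are less certain than this sum. For a single member, a shift of reads to or from another and a change of the gene cannot be told apart from these counts.

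In WT females Mup14 went the same way, at 39.1, 66.4 and 55.6 CPM after resolution and 23.2, 11.5 and 1.44 CPM under WDA. The groups did not overlap, like those of 10.1% of genes in this direction, and the log2 fold change was 2.18 ± 0.81 with an adjusted p of 0.326. EdgeR called 0 of the 7 members that passed the filter on low counts (Mup13 did not) and 0% of 12603 genes, where 1 member and 1716 genes had an unadjusted p under 0.05. DESeq2 called 0 members and 3.21% of genes. In WT males 0 of 8 members were called by edgeR against 11% of genes, and 1 was called by DESeq2 (13.9% of genes). At an unadjusted p under 0.05 in edgeR there were 2 of 8 members and 3800 of 12408 genes. These counts of members lie near or below the shares of all genes, so nothing is read from them. Without mouse 9, edgeR called 2, Mup1 and Mup13, against 13.5% of genes. In KO males 0 of 8 members and 0% of genes were called by edgeR, with 1 of 8 members and 819 of 12747 genes at an unadjusted p under 0.05. There, DESeq2 called 1 member (0.62% of genes). The member called by DESeq2 was Mup20 in WT and in KO males. Its log2 fold change was 0.58 ± 0.24 in WT males (adjusted p 0.042 by DESeq2, 0.142 by edgeR). In KO males it was 1.4 ± 0.4 (adjusted p 0.00486 by DESeq2, 0.636 by edgeR).

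Mup20 stood apart from the other members when the 5 mice high in cholangiocyte markers were compared with the other mice of their groups. In WT WDA female mouse 7, Mup3 was at 119 CPM, beside 1670 and 1874 CPM in the others, and Mup18 at 2.11 CPM beside 52.9 and 83.3 CPM. Mup20 in this mouse was at 155 CPM, above the 45.1 and 68.1 CPM of the others. In WT Res female mouse 13, Mup18 was at 8.05 CPM beside 90 and 124 CPM, while Mup20 was at 480 CPM beside 58.8 and 76.9 CPM. In these 2 females the other divergent members were low and darcin was high.

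In KO WDA male mouse 17 the family sum was 15.5-fold below the mean of the other 2 males. Mup14 was 29.6-fold below that mean (443 CPM) and Mup18 47-fold (25 CPM), whereas Mup20 was 2.3-fold below it (955 CPM). WT Res male mouse 9 had 6657 CPM of Mup20, between 4460 and 7119 CPM of the others, with a family sum 2.7-fold below their mean. KO Res male mouse 5 had 4136 CPM of Mup20, just below 4910 and 4939 CPM, with a sum 2.42-fold below the mean. Mup1, Mup3, Mup11, Mup18 and Mup21 were lowest of their group in all 5 mice, and Mup13 and Mup14 in 4 of 5.

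**Figure D5:**
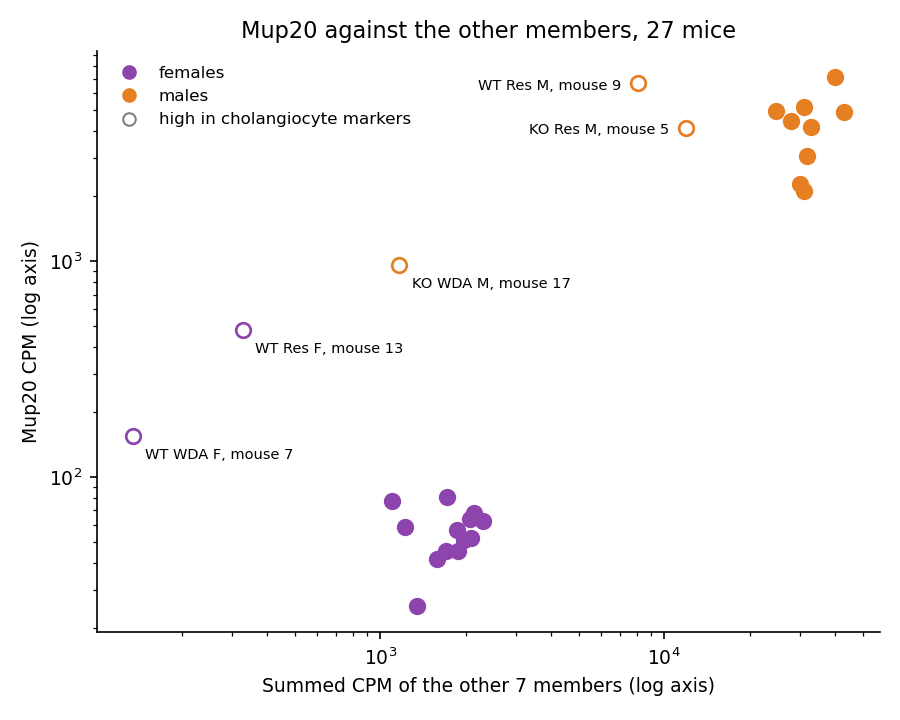
CPM of Mup20 against the summed CPM of the other 7 members in each of the 27 mice (both axes log), with open circles for the 5 mice high in cholangiocyte markers. The open circles lie left of the other mice of their sex, and those of the 2 females lie above all other females, at 155 and 480 CPM of Mup20.

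After group means had been subtracted, the log2 CPM of the 7 members other than Mup20 varied together over the 27 mice, with Pearson r of 0.795 to 0.99 over their 21 pairs (median 0.888). The r of Mup20 with the others was -0.315 to 0.155. Over the 22 mice left without the 5 named above, r was -0.063 to 0.854 for the same 21 pairs (median 0.306) and 0.076 to 0.721 for Mup20 with the others (median 0.514), so Mup20 did not stand apart among them. These are descriptions over mice that share groups, and reads divided among near-identical members could also tie their values together.

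Genes known for sex-biased expression in liver were set beside the family. Of a list of 14 male-biased genes, 10 of 12 tested genes rose in males in WT WDA mice (median log2 fold change 4.69, beside -0.03 over all genes), 2 of 11 in KO WDA, 11 of 13 in WT Res and 12 of 12 in KO Res mice, and none fell. In KO Res mice these included Cyp2d9 (log2 fold change 4.76, adjusted p 0.00128) and Slco1a1 (4.56, adjusted p 0.00128). In WT WDA mice the fatty acid hydroxylase Cyp4a12a had a mean of 441 CPM in males and 0.324 CPM in females, and Hsd3b5, a steroid enzyme, 44.5 and 0.0198 CPM. Both passed the filter on low counts only through the males, so these counts of the list are a description. Of the 14 female-biased genes, 3 of 11, 3 of 14, 5 of 14 and 4 of 14 fell in males in the same order of settings. Over all tested genes, 0.535%, 0.12%, 0.348% and 3.4% were called higher in males in this order. In either direction the shares were 0.851%, 0.296%, 0.545% and 6.34%. As for the members, the fewest male-biased genes were called in KO WDA mice, the setting with male mouse 17, whose male-biased sum was 929 CPM beside 4402 and 5089 CPM. In that mouse the female-biased sum was 640 CPM beside 204 and 254 CPM, and in KO Res male mouse 5 it was 1222 CPM beside 142 and 168 CPM.

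Genes of growth hormone signaling, the receptor, its kinase and STAT5 proteins and their targets, held few sex differences. In males, 0 of the tested genes (12 in WT Res mice and 11 in each other setting) rose, and 1 fell, in WT WDA mice: Socs2, a feedback inhibitor of the pathway (log2 fold change -1.75, adjusted p 0.0222). Between the stages in KO females, 3 of 11 rose and 1 fell, with Socs2 (2.06, adjusted p 0.00583) and Igf1, the main circulating growth factor of the pathway (0.71, adjusted p 0.0149), among those that rose and Stat5b (-0.5, adjusted p 0.0236) the one that fell. Cux2, a repressor typical of female liver, also rose in the same comparison (4.59, adjusted p 0.00193). In that comparison 1 of 10 tested male-biased genes rose and 1 fell, and 7 of 14 female-biased genes rose and 1 fell, beside the 20.4% of all genes called.

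The genes most like the family sum over all 27 libraries, by Spearman's rho among 9743 genes, were Slco1a1 (0.932), a bile acid and steroid carrier of male liver, Elovl3 (0.923), a fatty acid elongase, Cyp2d9 (0.923), a steroid hydroxylase, and Alas2 and Phyh (0.91 each). Slco1a1 was at 0.4 to 23.8 CPM in females and 10.9 to 423 CPM in males. After group means had been subtracted, the genes of highest Pearson r with the sum were Serpina12 and Cyp4v3 (0.971 each), Rarres1 (0.963), Txndc15 (0.96) and Sugct (0.958). Without the 5 mice, rho was 0.881 to 0.914 for the first 5 genes and r was 0.645 to 0.768 for the second 5. These are descriptions, with no test.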

How the data were processed

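Liver RNA of 27 mice was sequenced by a commercial service. Per the labels, HISAT, Bowtie2 and GRCm38.p6 were named in the submitters' processing notes. The deposited Read Count columns hold expected counts, which are partly fractional (the counting step is not given in the sources used here), and the deposited FPKM columns hold the authors' length- and depth-normalized values. Counts were rounded and tested with edgeR 4.0.16 in R 4.3.3 (TMM scaling, filterByExpr with a minimum count of 10, quasi-likelihood test, Benjamini-Hochberg threshold 0.05 over all genes that passed), each comparison on its own groups; the 4 tables were joined by gene. Depth was 14634602 to 19388251 counts per library, and floors for counts of 0 cover counting error only. Family sums were log2 CPM with a prior count of 2 on 1 TMM scale, given as differences with SE and no test. The members and gene lists were chosen with earlier results of these data known. Comparisons share groups and are not independent evidence of each other. Those with the WT Res or KO Res females reuse values of the contrast that chose the family, so their calls are descriptions. Members are named in full; from each list the genes called with the largest changes are named, or up to 2 with values where none was called; likeness was ranked over genes with a mean log2 CPM of at least 2. Alternatives were DESeq2 1.42.0, other scalings, filters and prior counts, a shared spread, and leaving out mice. The fit was checked on simulated data. Coding sequences came from GENCODE vM21 transcripts (8 of 8 members, 1 transcript each, the one whose coding length was nearest to that of Mup20) and gene positions and promoters from RefSeq (5 of 8 promoters), all on GRCm38.p6; promoters of Mup1, Mup13 and Mup20 were not used here. Replicates are separate mice, named by the mouse numbers of the labels. Some list results are not reported here.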

Additional observations from a re-analysis of the deposited data

How the results depend on the processing

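Depth, the sharing of reads among near-identical members and 3 mice a group set the limits. Single values of Mup1, Mup11, Mup13, Mup14 and Mup18 are uncertain, and stage cannot be told apart from title number or weeks on WDA. No paired analysis was possible because mouse numbers repeat between the title numbers without marking shared animals, and replicate numbers follow the order of the deposit. Under the alternatives, 183 counts of members called stayed within 1.5 times and 37 moved, and 225 family sums moved by less than the spread and 9 by more; of the single values with a test, in the comparisons that print them, 896 kept their direction and side of the threshold, 57 passed it, 61 lost it and 26 changed sign, and of those without a test 108 moved by less than the spread and 3 by more. The cause of these shifts was not tested, except where fewer mice were fitted.

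Without the mice high in cholangiocyte markers, an alternative chosen after seeing the data, the number of members called was 8 for males against females in WT WDA, KO WDA and WT Res mice (5, 1 and 4 with all mice), 4 for HepKO against WT and 2 for Res against WDA in WT males (0 for both with all mice). The family sum of the sex by stage difference in WT was then 0.86 (-0.35 with all mice). Among the single values that the text prints, log2 fold changes that changed sign were those of Mup1 (0.07), Mup13 (0.33) and Mup18 (0.29) in KO against WT WDA males, Mup3 (-0.31), Mup14 (-0.06), Mup18 (-0.28) and Mup21 (-0.3) in KO against WT WDA females, and Mup3 (-0.29), Mup20 (0.01) and Mup21 (-0.47) in HepKO against WT. With library totals, Mup3 was at -0.01 in HepKO against KO, and 2 members were called for the sexes in KO WDA mice. With no filter, 2 were called there and 1 in HepKO against KO. With DESeq2, 4 were called for the sexes in KO WDA and 7 in WT Res mice, 1 in HepKO against WT, 4 in HepKO against KO, and 1 each in Res against WDA in WT males and KO males. With a spread shared by all groups, 4 were called for the sexes in KO WDA and 5 in KO Res mice, and 1 in Res against WDA in KO females. No share of all genes called is given for library totals, no filter, the shared spread or most fits with 1 mouse left out. Member counts under these settings are descriptions only. Over every Mup row, the family difference was 1.59 for KO against WT Res females, 2.2 for HepKO against WT, 0.62 for HepKO against KO, 0.61 for Res against WDA in KO females, and 3.56 and 2.12 for the sexes in WT Res and KO Res mice.

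Leaving out 1 mouse at a time, members called ranged from 0 to 8 (WT WDA sexes), 0 to 8 (KO WDA), 1 to 5 (WT Res), 4 to 8 (KO Res), 0 to 4 (HepKO against WT, 4 without WT mouse 7), 0 to 1 (HepKO against KO, 1 without HepKO mouse 13) and 0 to 2 (Res against WDA, WT males, 2 without mouse 9). In KO against WT WDA females the log2 fold change ranged from -0.31 to 0.67 for Mup3, -0.06 to 1.36 for Mup14, -0.28 to 1.02 for Mup18 and -0.3 to 0.77 for Mup21. In KO against WT WDA males it ranged from -0.95 to 0.07 for Mup1, -0.88 to 0.33 for Mup13 and -0.73 to 0.29 for Mup18. In HepKO against WT it ranged from -0.29 to 0.7 for Mup3, -0.99 to 0.01 for Mup20 and -0.47 to 0.62 for Mup21, and in HepKO against KO from -0.14 to 0.19 for Mup3 and -0.34 to 0.05 for Mup21. The family sum of the sex by stage difference ranged from -0.87 to 0.6 in WT and -0.3 to 1.68 in KO.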

Other observations

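The tables hold 14 further genes with a Mup symbol and number, and the 8 members described above carried 7.62 to 40.7% of all Mup counts of a library. By total counts the most abundant of the others was Mup22, at a median FPKM of 10428 in females (458 to 18251) and 30695 in males (2497 to 37639), followed by Mup19 at 6155 in females and 39556 in males. Mup7 had the widest gap between the sexes among the abundant ones, with a median FPKM of 10.4 in females (0.13 to 317) and 20309 in males (820 to 36499). Mup10 had the higher median in females, at 1809 FPKM (60.3 to 2914) against 913 FPKM in males (124 to 1702). The ranges of Mup10 overlapped between the sexes, and these values are given without a test. Summed over every Mup gene, females had 710 to 30320 CPM (median 14275) and males 5897 to 160649 CPM (median 119467).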
